A study of Rattus norvegicus with 4 samples.

Results

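The 10 genes described here encode the contractile apparatus of smooth muscle cells and myofibroblasts. They are the actins *Acta2* and *Actg2*, the actin-binding proteins *Tagln*, *Cnn1* and *Cald1*, the tropomyosins *Tpm1* and *Tpm2*, the myosin chains *Myh11* and *Myl9*, and the kinase *Mylk*. They were chosen by name, with earlier results of these data known. A probe set (several short probes read together as 1 value) was used when its only gene symbol in the platform annotation was one of these names. All 10 genes had at least 1 such probe set, giving 21 of the 31042 probe sets on the array. A further 5 probe sets carried both *Acta2* and *Actc1*, the cardiac actin, and were not counted with either.

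In smooth muscle and in myofibroblasts, force comes from myosin sliding along actin filaments. Calcium and calmodulin activate myosin light chain kinase, which phosphorylates the regulatory light chain of myosin, while tropomyosin, calponin and caldesmon lie on the actin filament and modulate its contact with myosin. Lens epithelial cells (LECs) that undergo epithelial-mesenchymal transition (EMT) are known to gain alpha smooth muscle actin, and their contraction wrinkles the lens capsule in posterior capsule opacification (PCO).

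The samples were lens capsules with LECs of female albino Sprague-Dawley rats that underwent extracapsular lens extraction (ECLE), the removal of the lens content through an opening in its capsule, at an age of 7 weeks. There was 1 array at day 0 (capsules taken when the surgery was completed, rats 7 weeks old), 2 arrays at 1 W labeled as biological replicates 1 and 2 (day 7, 8 weeks old) and 1 array at 2 W (day 14, 9 weeks old). All groups, day 0 included, had the surgery, so no capsule without surgery was compared. More samples a group are stated in the methods than there are arrays here, and how eyes were combined per array could not be worked out from the sources used here. Each capsule sample holds whatever cells adhered to it.

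Mean intensities were 244 (day 0), 218 and 210 (1 W) and 165 (2 W), and levels below are given in percent of the mean of their own array. After this step the median log2 ratio to day 0 over all 14217 genes, each by its brightest probe set, was -0.02 at 1 W and -0.16 at 2 W. Differences were tested with limma on the 18625 brighter probe sets, among them 15 of the 21 described here, with p-values adjusted over all of them (Benjamini-Hochberg, threshold 0.05, two-sided). The spread in this test comes only from the 2 arrays at 1 W, and the same spread is assumed for the single day 0 array and the single 2 W array. Both ratios to day 0 share the same day 0 array. In whole capsules, more cells of a type and more RNA per cell cannot be told apart. The 9 measured lens epithelium markers summed to 18070% of the array mean at day 0, 17940% and 17890% at 1 W, and 17380% on the 2 W array. The single markers were not as even as this sum, whose brightest member *Cryab* had 3778% at day 0 and 5759% at 2 W. At 2 W the median log2 ratio of the 9 was -0.54 and 3 were under 0.5-fold, among them *Cdh1*, the epithelial cadherin, with 2804% at day 0, 1382% and 1184% at 1 W, and 758% on the 2 W array. An unadjusted p under 0.05 was reached at 2 W by 5 lower and 2 higher markers, and limma called 0 of them.

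Most of the contractile genes stood above day 0 after ECLE, but by very different amounts, and only *Tagln* passed the test. The 10 genes were chosen with earlier results of these data known, so their counts below are a description and no test of the group. By their brightest probe sets, 7 of the 10 genes were over 2.0-fold of day 0 at 1 W (mean of both arrays), where 8.98% of all genes were. The same 7 genes were over 2.0-fold at 2 W, against 12% of all genes. They were *Tagln*, *Actg2*, *Mylk*, *Myh11*, *Cnn1*, *Tpm2* and *Myl9*. The other 3, *Acta2*, *Tpm1* and *Cald1*, were under 2.0-fold at both times and were at the 72.9, 93.6 and 97.1 percentiles of the day 0 array. The 7 genes lay lower on that array, from the 19.9 (*Cnn1*) and 22.1 (*Actg2*) percentiles up to the 59.4 (*Myl9*). Some of their ratios thus rest on dim day 0 values. With a floor at the 20th percentile, 7 genes were over 2.0-fold at each time. Under median scaling *Acta2* passed the rule at 1 W (log2 ratio 1.02). None of the 10 was under 0.5-fold at 1 W or at 2 W, where 8.36% and 14.7% of all genes were. On each of the 3 arrays after ECLE, 9 of the 10 genes were above day 0, all but *Tpm1*, against 26.5% of all genes. This count was 10 with median scaling and 8 with the values as deposited. Over all genes, 6.13% were over 2.0-fold at both times. The 10 genes had a median log2 ratio of 2.25 for 1 W and 2.02 for 2 W. Of the 15 tested probe sets, only the one of *Tagln* was called higher by limma, at each time, against a background of 0.0483%. No probe set of any gene was called lower (0%). With median scaling, limma also called *Myl9* higher at 1 W and 2 probe sets of *Tpm1* higher at 2 W. With the values as deposited it called 1 *Tpm1* probe set higher and 2 lower at 2 W, and without the filter or with quantile normalization no member at 2 W. limma without a trend called no member at either time. The other 6 probe sets were below the level filter, and that of *Cnn1* was just above it, at the 41.3 percentile of mean level. At an unadjusted p under 0.05, 9 of the 15 were higher at 1 W, against 8.21% of the tested probe sets, and 6 were higher at 2 W, against 9.01%. None of the 15 was lower at this limit, where 9.66% were at 1 W and 21.9% at 2 W. For 2 W over 1 W, limma called 0 probe sets in all. At an unadjusted p under 0.05, 2 of the 15 were higher, both of *Tpm1*, against 5.5%, and 3 were lower, 1 of *Tagln* and 2 of *Tpm1*, against 16.4%.

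**Figure D1:**
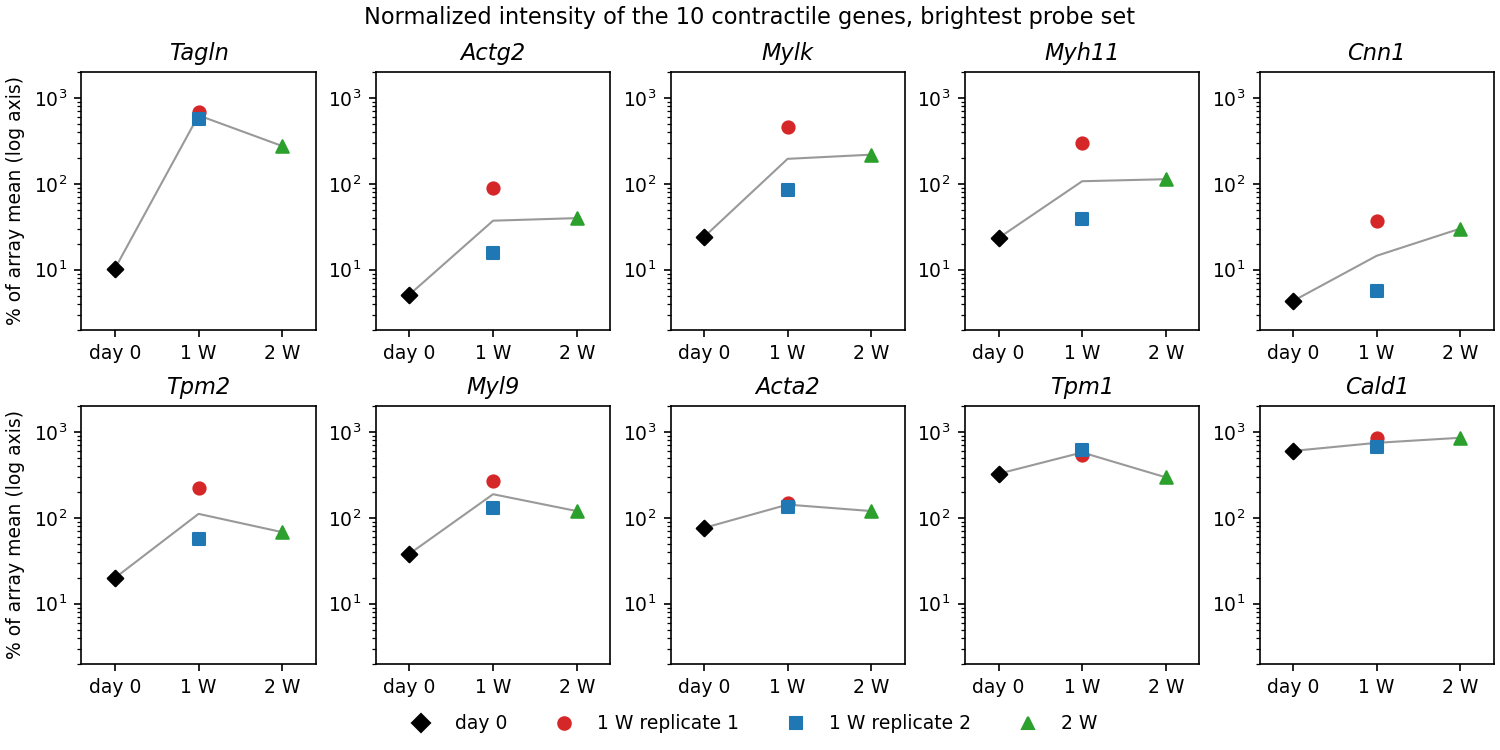
Normalized intensity of the brightest probe set of each gene, in percent of its array mean on a log axis, at day 0 (diamond), on replicate 1 (circle) and replicate 2 (square) at 1 W and at 2 W (triangle); each point is 1 array and the line runs through the geometric mean at 1 W. *Tagln* had 10.3% at day 0 and 695% and 569% at 1 W, and its 2 symbols at 1 W nearly coincide, while those of *Myh11* lie at 298% and 38.7%.

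*Tagln* encodes transgelin (SM22), which binds actin filaments and is an early marker of smooth muscle differentiation. Its only probe set stood at 10.3% of the array mean at day 0. At 1 W replicate 1 had 695% and replicate 2 had 569%, and the 2 W array had 276%. Its place among all probe sets was the 34.3 percentile at day 0, and it lay at the 97.6 and 97.0 percentiles at 1 W and the 93.1 percentile at 2 W. All 3 arrays after ECLE were far above day 0, and both arrays at 1 W were above the 2 W array. *Tagln* thus rose by a log2 ratio of 5.94 at 1 W, with a standard error of 0.19 and an adjusted p of 0.0297 (limma). The log2 ratio of 4.75 at 2 W, with a standard error of 0.22, had an adjusted p of 0.04999, at the edge of the threshold. Without the level filter the adjusted p at 2 W was 0.0515 and with quantile normalization 0.0576. limma without an intensity trend gave 0.295 at 1 W and 0.149 at 2 W. Over the other settings tried the adjusted p was 0.000205 to 0.0385 at 1 W and 0.000594 to 0.0497 at 2 W. The log2 ratio of 2 W over 1 W was -1.19 (adjusted p = 0.139).

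The smooth muscle actins differed from each other in how far they stood above day 0. *Acta2* encodes alpha smooth muscle actin, the standard marker of myofibroblasts. Its level was 76.4% of the array mean at day 0, 151% and 135% at 1 W, and 120.1% on the 2 W array. The 3 arrays after ECLE lay close together and above day 0, with log2 ratios of 0.98, 0.82 and 0.65. limma gave a mean log2 ratio of 0.90 at 1 W (standard error 0.18, adjusted p = 0.154) and 0.65 at 2 W (standard error 0.20, adjusted p = 0.128). With the values as deposited the 2 W log2 ratio of *Acta2* was 0.086. *Actg2* encodes the gamma actin of enteric and other smooth muscle. Its level was 5.13% at day 0, 88.5% on replicate 1 and 15.7% on replicate 2 at 1 W, and 39.9% at 2 W. Here the 2 arrays at 1 W lay on either side of the 2 W array, and the lower of them was still 3.06-fold of day 0. The mean log2 ratio was 2.86 at 1 W (standard error 1.11, adjusted p = 0.294) and 2.96 at 2 W (adjusted p = 0.207).

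The genes of smooth muscle myosin and its kinase were high on replicate 1 and lower on replicate 2. *Myh11* encodes the smooth muscle myosin heavy chain, a marker of fully differentiated smooth muscle. Its brighter probe set stood at 23.4% of the array mean at day 0, 298% and 38.7% at 1 W, with 113% at 2 W. Relative to day 0 this was 12.8-fold on replicate 1, 1.65-fold on replicate 2 and 4.85-fold at 2 W. Its second probe set, below the level filter, gave the same order of arrays, with ratios of 5.19, 1.63 and 2.98. *Mylk*, the myosin light chain kinase, had 24.1% at day 0, 458% and 83.8% at 1 W, and 219% on the 2 W array by its brighter probe set. *Myl9*, the regulatory light chain that this kinase phosphorylates, had 38.1% at day 0, 271% and 131% at 1 W, and 120.1% on the 2 W array. Of the 3 genes, *Myl9* had the smallest gap between the arrays at 1 W, and its mean log2 ratio was 2.31 at 1 W (standard error 0.48, adjusted p = 0.165) and 1.65 at 2 W (adjusted p = 0.142). With arrays scaled by their median, *Myl9* passed at 1 W (adjusted p = 0.0396). The mean log2 ratio of *Mylk* was 3.03 (standard error 1.06, adjusted p = 0.27) and that of *Myh11* 2.20 (standard error 1.27, adjusted p = 0.416) at 1 W.

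Of the thin filament proteins, calponin was over 2.0-fold of day 0 on 2 of the 3 arrays after ECLE. *Cnn1* encodes calponin 1, which binds actin and tropomyosin in smooth muscle. Its level was 4.32% of the array mean at day 0, 37.4% on replicate 1 and 5.65% on replicate 2 at 1 W, and 30.1% at 2 W. Replicate 2 was 1.31-fold of day 0, against 8.66-fold on replicate 1 and 6.98-fold at 2 W, and the 1 W mean had a standard error of 1.24 log2 units (adjusted p = 0.494). *Cald1* encodes caldesmon, which is made in a smooth muscle form and in a form found in most other cells. Its brightest probe set was the highest of the 21 on the day 0 array, at 603% of the mean, with 842% and 667% at 1 W, with 859% at 2 W. A second bright probe set had 215% at day 0, 286% and 245% at 1 W, and 338% on the 2 W array. Both lay above day 0 on each array, by log2 ratios of 0.14 to 0.65, and neither passed the test (adjusted p = 0.426 and 0.4 at 1 W, 0.2 and 0.119 at 2 W). The brightest one lay below day 0 at 2 W with the values as deposited (log2 ratio -0.057).

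**Figure D2:**
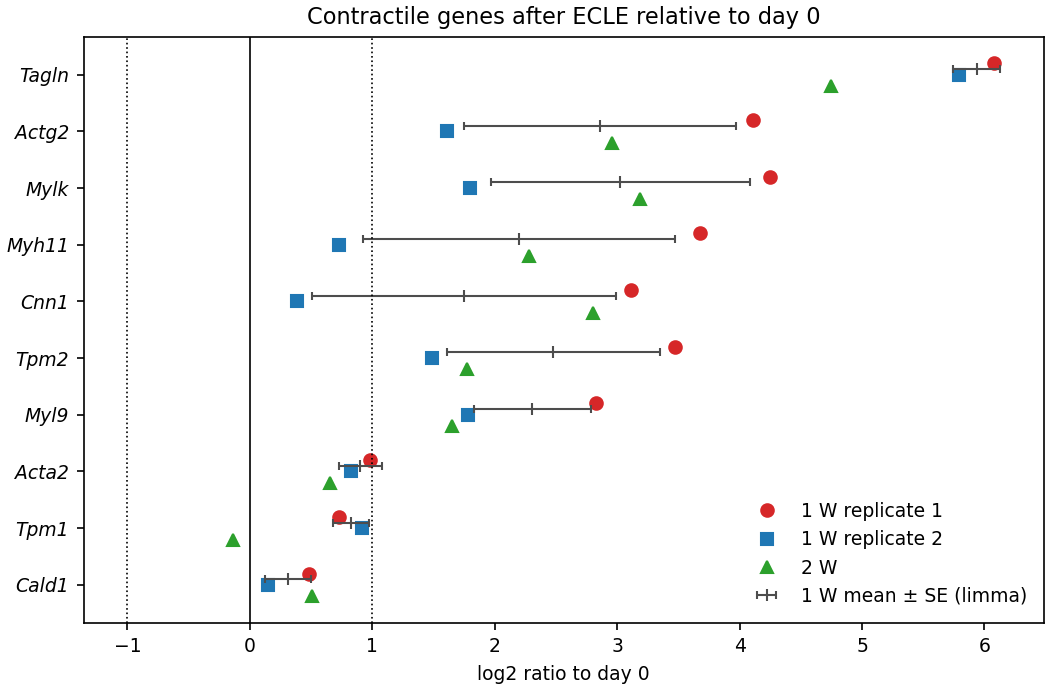
For each gene by its brightest probe set, the horizontal axis gives the log2 ratio to day 0 on replicate 1 (circle) and replicate 2 (square) at 1 W and at 2 W (triangle), with the 1 W mean and its limma standard error as a bar and dotted lines at 2.0-fold and 0.5-fold. The bar of *Cnn1* (1.75 ± 1.24) is wide and that of *Tagln* (5.94 ± 0.19) is narrow; *Acta2*, *Tpm1* and *Cald1* lie left of the 2.0-fold line.

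Several genes had probe sets that did not move together, most of all the tropomyosins. Tropomyosins are coiled-coil proteins along the actin filament, and *Tpm1* gives several proteins by alternative splicing. In the naming of this array family, the suffix _a_at marks probes shared by alternative transcripts of a gene, and _x_at marks a set in which some probes may also bind other sequences. *Tpm1* had 7 probe sets, of which 5 were tested. The brightest, 1370287_a_at, stood at 327% of the array mean at day 0, 542% and 618% at 1 W, and 297% on the 2 W array. Next to it, 1370288_a_at had 120.5%, 232%, 218% and 130.1% on the same arrays. Both were above day 0 at 1 W and back near day 0 at 2 W. In contrast, 1371241_x_at had 51.8% at day 0, 84.8% and 97.5% at 1 W, with 185% at 2 W, and 1368724_a_at had 52.2%, 82.1%, 71.2% and 136%. Both were above day 0 at 1 W and higher again at 2 W. The log2 ratio of 2 W over 1 W was -0.96 and -0.79 for the first pair and 1.03 and 0.83 for the second. None of these 4 differences passed the test (adjusted p = 0.139, 0.145, 0.144 and 0.159; unadjusted p = 0.00268, 0.00628, 0.00536 and 0.013 from limma). Under other scalings some *Tpm1* differences passed. With the values as deposited, the first pair was called lower at 2 W than at 1 W. Relative to day 0, 1371241_x_at was called higher at 2 W with median scaling (adjusted p = 0.00922) and as deposited (0.0151), and 1368724_a_at with median scaling (0.0207). As deposited, 1370287_a_at was called lower than day 0 at 2 W (log2 ratio -0.70, adjusted p = 0.0338). The 4 agreed at 1 W, where their log2 ratios were 0.83, 0.90, 0.81 and 0.55.

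The remaining *Tpm1* probe sets gave other patterns at lower levels. The fifth tested one, 1395794_at, was below day 0 on each array, with 82.3% of the mean at day 0, 47.0% and 65.9% at 1 W, and 53.9% on the 2 W array (adjusted p = 0.372 at 1 W and 0.282 at 2 W, and 0.0336 at 2 W with the values as deposited). Below the filter, 1370513_at ranged from 3.59% to 6.60% and 1371240_at from 0.738% to 2.23% of the array mean. Both stayed at or below the 27.2 percentile of their arrays. With scaling by the array median, the brightest *Tpm1* probe set had a log2 ratio of 0.14 at 2 W in place of -0.14. At this size its 2 W direction depends on the scaling.

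*Tpm2*, the beta tropomyosin of muscle and fibroblasts, had probe sets of opposite direction. The brighter one stood at 19.97% of the array mean at day 0, 221% and 56.1% at 1 W, and 68.2% on the 2 W array. Its log2 ratio was 2.48 at 1 W (standard error 0.87, adjusted p = 0.27) and 1.77 at 2 W (adjusted p = 0.299). The dim one had 6.28% at day 0, 0.992% and 3.81% at 1 W, with 0.741% at 2 W. It was below the filter on which the test was run, and lay between the 5.19 and 25.3 percentiles of the arrays. The second probe set of *Mylk* was likewise dim, with 3.70% at day 0, 20.5% and 1.32% at 1 W, and 13.6% on the 2 W array. It kept the order of the arrays seen with the brighter set, except that replicate 2 lay below day 0 (ratio 0.358). The dimmest probe set of *Cald1* ranged from 0.875% to 8.02% of the array mean, between the 6.67 and 31.0 percentiles of the arrays.

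**Figure D3:**
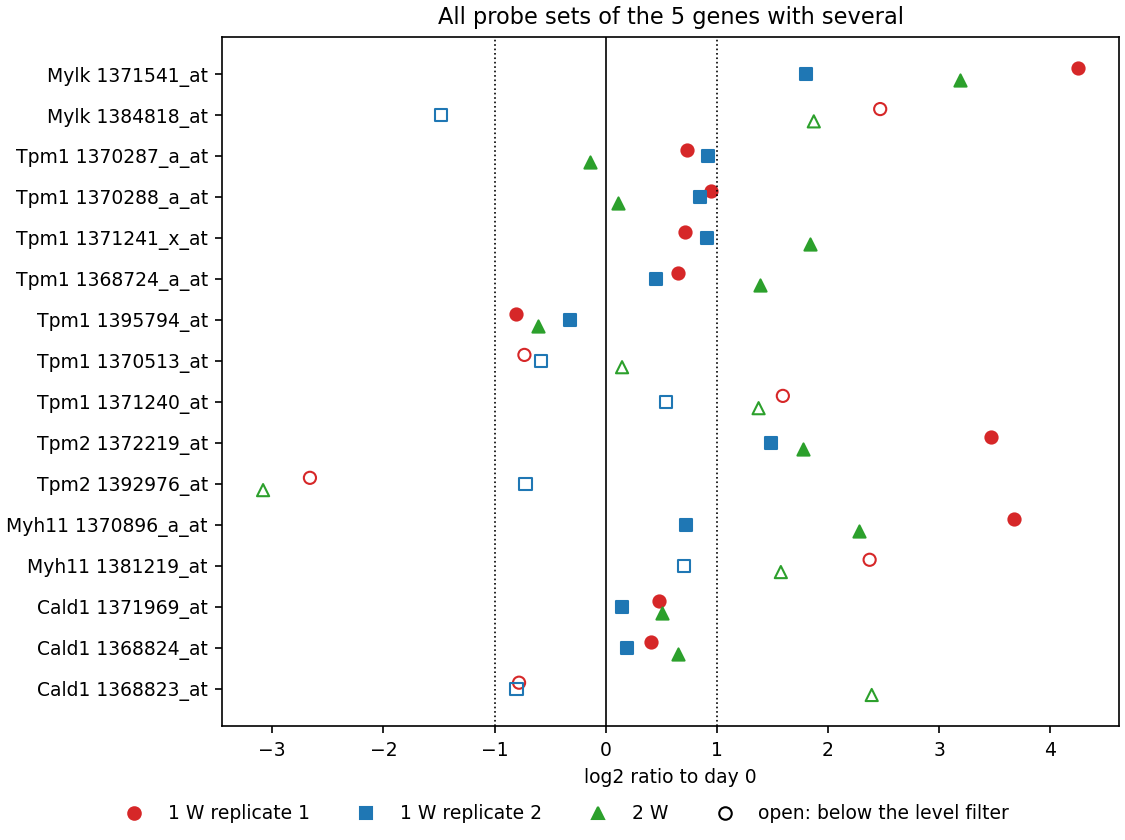
Log2 ratio to day 0 (horizontal axis) of every probe set of the 5 genes that have several, brightest first within a gene, on replicate 1 (circle) and replicate 2 (square) at 1 W and at 2 W (triangle); open symbols are probe sets below the level filter. The triangles of the first *Tpm1* pair lie at -0.14 and 0.11 and those of the second pair at 1.84 and 1.39, while the 2 probe sets of *Tpm2* lie on opposite sides of 0.

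The arrays at 1 W split the 10 genes into those on which the replicates differed and those on which they were alike. *Myh11*, *Cnn1*, *Actg2*, *Mylk*, *Tpm2* and *Myl9* were over 2.0-fold higher on replicate 1 than on replicate 2, which makes 6 of 10 genes where 6.1% of all genes were. None was over 2.0-fold lower on replicate 1, where 8.24% of all genes were. The log2 differences were 2.95, 2.73, 2.50, 2.45, 1.98 and 1.05. *Cald1*, *Tagln*, *Acta2* and *Tpm1* differed by 0.34, 0.29, 0.16 and -0.19, close to the median absolute difference of 0.207 over the tested probe sets. For the first 5 of the 6 genes the 2 W level lay between the 2 arrays at 1 W, so these data give no order of 1 W and 2 W for them. Over all genes this share was 20.9%. The 5 genes were grouped by their wide gap, within which a 2 W level falls more easily, so the shares cannot be compared. Without replicate 1, *Cnn1* and *Myh11* were no longer over 2.0-fold at 1 W, and the median log2 ratio of the 10 genes at 1 W was 1.21. Without replicate 2 it was 3.29. The 5 genes over 2.0-fold on every array after ECLE were *Tagln*, *Actg2*, *Mylk*, *Tpm2* and *Myl9*, against 4.28% of all genes. The split stayed at 6 genes under each scaling and with a floor on low values.

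Other transcripts moved between the same 2 arrays, and their part in the difference was not tested. Of 10 other smooth muscle genes with a probe set, all were higher on replicate 1, by a median of 0.94 log2 units. Only 5 of the 10 passed the level filter, and these differed by 1.94, 0.61, 0.44, 0.37 and 0.04 log2 units. *Des*, the intermediate filament protein desmin of muscle, which was picked after its values were seen, had 9.72% of the array mean at day 0, 96.0% and 25.0% at 1 W, and 47.5% on the 2 W array. All 6 measured pigment cell markers were also higher on replicate 1. Their sum was 1080.0% at day 0, 6735% and 2411% at 1 W, with 3704% at 2 W. Of the pericyte and mural cell markers, which mark the cells around vessels, 5 of 8 were higher on replicate 1. Over the 8 the median difference was 1.08 log2 units. Their sums were 293% at day 0, 383% and 231% at 1 W, and 265% on the 2 W array. Of the endothelial markers, 7 of 8 were higher on replicate 1, with a median difference of 0.998 log2 units. Their sums were 181%, 332%, 186% and 254% in the same order. All 9 measured photoreceptor markers were lower on replicate 1, with sums of 5660.0% at day 0, 584% and 2340.0% at 1 W, and 752% on the 2 W array. Of the fibroblast markers, 6 of 9 were higher on replicate 1, with a median difference of 0.10 log2 units and sums of 2232% at day 0, 5184% and 2864% at 1 W, and 4707% on the 2 W array. Most of the gap between these sums at 1 W was *Dcn*, the proteoglycan decorin, with 1948% on replicate 1 and 241% on replicate 2. *Col1a1*, a chain of type I collagen, was the only gene of these marker lists that limma called. The 9 macrophage markers summed to 179%, 1276%, 963% and 686%. The sums of the lens epithelium markers on these 2 arrays were 17940% and 17890%, and 14 measured striated muscle markers had a median difference of -0.02. Only 4 of these 14 passed the level filter. No marker was listed at 0 on any array. Over all genes, 46.4% were higher on replicate 1.

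**Figure D4:**
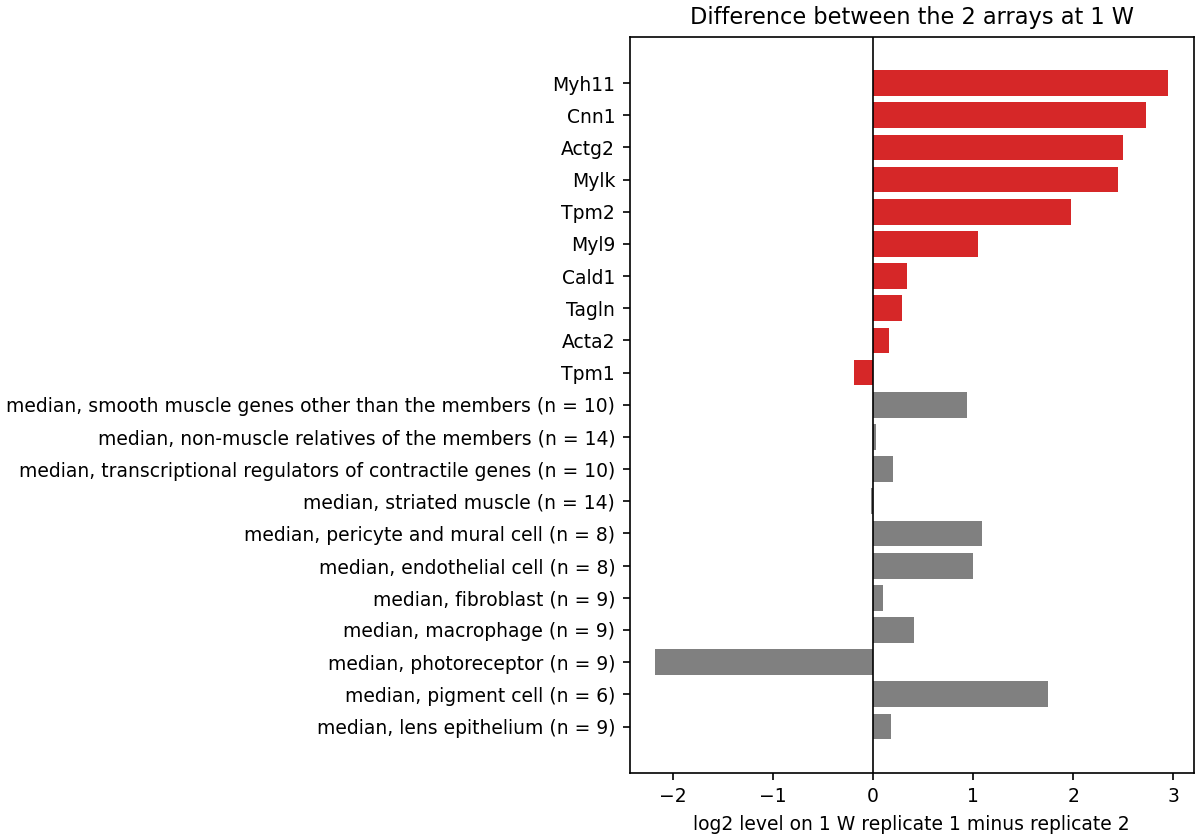
Log2 level on replicate 1 minus log2 level on replicate 2 at 1 W (horizontal axis) for each of the 10 genes by its brightest probe set (red bars) and, as the median over the measured genes, for the other gene lists (grey bars, n is the number of genes). *Myh11* has a bar of 2.95 and *Tpm1* one of -0.19, and the longest grey bars are those of photoreceptor (-2.18) and pigment cell (1.75) markers.

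Genes that work with the contractile apparatus gave a mixed picture, and limma called none of those bright enough to be tested. Of the 10 measured smooth muscle genes outside the group of interest, 6 were over 2.0-fold at both times (6.13% of all genes), with median log2 ratios of 1.30 and 1.75. Only 5 of the 10 were tested, and of these 2 at 1 W and 3 at 2 W were higher at an unadjusted p under 0.05, against 8.21% and 9.01% of all tested probe sets. The brightest, *Csrp1*, a LIM domain protein of smooth muscle, had 84.6% of the array mean at day 0, 430% and 318% at 1 W, and 275% on the 2 W array (adjusted p = 0.101 and 0.0639). *Pdlim7*, a protein that links actin filaments to signaling kinases, had 145% at day 0, 175% and 170% at 1 W, and 528% on the 2 W array (adjusted p = 0.413 and 0.0553). Its 2 W array lay above the other 3, which were alike.

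The non-muscle relatives of the same proteins had smaller ratios to day 0. Of 14 measured genes, all of them tested, 3 were over 2.0-fold at 1 W (8.98% of all genes) and 1 at 2 W (12%). The list had median log2 ratios of 0.63 and 0.23. An unadjusted p under 0.05 was reached by 8 higher genes and 1 lower gene at 1 W, and by 4 higher and 2 lower genes at 2 W. The share of all tested probe sets was 8.21% higher and 9.66% lower at 1 W, and 9.01% and 21.9% at 2 W. *Actg1*, the cytoplasmic gamma actin, had 3407% at day 0, 4371% and 3632% at 1 W, with 5081% at 2 W (adjusted p = 0.481 and 0.128). *Cnn3*, the calponin of non-muscle cells, had 2446%, 1845%, 1729% and 1572% on the same arrays (adjusted p = 0.202 and 0.079). The one gene over 2.0-fold on every array was *Tagln2*, a relative of *Tagln* found in many cell types, named after its values were seen. It had 191% at day 0, 695% and 689% at 1 W, and 422% on the 2 W array (log2 ratios of 1.86 and 1.15, adjusted p = 0.0828 and 0.0577).

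Among 10 measured transcriptional regulators of contractile genes, 2 were over 2.0-fold at both times (6.13% of all genes). Of the 8 that were tested, 2 higher genes and 1 lower gene reached an unadjusted p under 0.05 at each time. The share of all tested probe sets was 8.21% higher and 9.66% lower at 1 W, and 9.01% and 21.9% at 2 W. *Tead1*, a factor that binds the MCAT element of muscle promoters, had 354% to 440% at day 0 and 1 W and 316% at 2 W (adjusted p = 0.426 and 0.526). *Smad3*, a transducer of TGFβ signals, had 292% at day 0, 228% and 205% at 1 W, with 121% at 2 W (adjusted p = 0.277 and 0.0589). *Fhl2*, a LIM domain cofactor named after its values were seen, had 2.71% at day 0, 41.2% and 25.6% at 1 W, and 36.7% on the 2 W array (adjusted p = 0.116 and 0.0589). *Myocd*, which encodes the smooth muscle coactivator myocardin and was also named after its values were seen, was below the filter, with 9.81% at day 0 and 5.27% to 6.25% after ECLE.

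No array measured binding to the promoters of these genes, and their sequences are given for the elements known to act on contractile genes. RefSeq windows of assembly GRCr8, from 250 bases before to 50 bases after the annotated start, were matched for 7 of the 10 genes (8 windows, with 2 for *Cald1*), not for *Tagln*, *Myh11* and *Myl9*. They were searched on both strands for the MCAT element CATTCC, the Smad element CAGAC and the CArG box, the site of serum response factor. These motifs do not overlap each other in the windows shown. The MCAT letters were found in 4 of the 8 windows, against 14.2% of 33469 windows, and the Smad letters in 7 of 8, against 50.1%. No window had a strict CArG match, which 1.64% of all windows had. The strict pattern allowed only A and T between CC and GG. The *Acta2* window below holds ccctatatgg and ccttgtttgg, which each have another base in that stretch and were not counted. The absence of a strict match is thus no absence of CArG-like letters. A match of letters is a description and not a site in use. The whole window of *Acta2* is shown because this gene is the usual readout of EMT in the lens; capitals mark the MCAT element (GGAATG, on the opposite strand) and the Smad elements.
Acta2, chr1:241172454-241172753, minus strand: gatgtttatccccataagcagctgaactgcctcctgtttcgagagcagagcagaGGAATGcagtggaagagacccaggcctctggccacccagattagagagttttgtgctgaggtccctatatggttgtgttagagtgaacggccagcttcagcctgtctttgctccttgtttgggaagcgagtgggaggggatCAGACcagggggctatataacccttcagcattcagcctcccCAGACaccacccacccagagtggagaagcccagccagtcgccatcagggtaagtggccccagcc

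The MCAT element with 20 bases on each side is set out below for the other 3 genes that had one, so that their surroundings can be compared, with capitals on the element alone. The *Acta2* element starts at position -196 relative to the annotated start, that of *Cald1* at -195, that of *Mylk* at -36 and that of *Tpm1* at -31. Among these 4 genes, by their brightest probe sets, *Mylk* was over 2.0-fold of day 0 at both times and *Acta2*, *Tpm1* and *Cald1* were not. Other probe sets of *Mylk* and *Tpm1* did not all give this. A relation between the element and these ratios was not tested.
Cald1, chr4:64233041-64233086, plus strand: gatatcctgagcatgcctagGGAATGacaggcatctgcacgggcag
Mylk, chr11:79498585-79498630, minus strand: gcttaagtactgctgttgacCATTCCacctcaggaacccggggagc
Tpm1, chr8:76543421-76543466, minus strand: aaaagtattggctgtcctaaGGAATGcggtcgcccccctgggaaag

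Among the 10455 genes whose brightest probe set passed the filter, likeness to *Acta2* and to *Tagln* was measured by the root mean square difference of the log2 ratios to day 0 on the 3 arrays after ECLE. Closest to *Acta2* were *Acot9*, *Coa4* and *Fcmr*, at 0.033, 0.047 and 0.058 log2 units. These distances are below the median absolute difference of 0.207 between the arrays at 1 W over the tested probe sets. Which genes are nearest to *Acta2* is thus not resolved. Closest to *Tagln* were *Serpina3n*, a serine protease inhibitor, *Grem1*, a secreted antagonist of bone morphogenetic proteins, and *Tnfrsf11b*, the decoy receptor osteoprotegerin, at 0.396, 0.462 and 0.507. The nearest genes of *Tagln* are thus 0.396 or more away. *Serpina3n* had log2 ratios of 6.10 and 6.01 at 1 W and 5.40 at 2 W, above those of *Tagln* on each array. *Grem1* had log2 ratios of 5.99 and 5.12 at 1 W and 5.18 at 2 W, and *Tnfrsf11b* had 5.64, 5.04 and 4.75.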

How the data were processed

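The authors hybridized biotin-labeled RNA to rat genome arrays, scanned them with Command Console software, made probe set values with Affymetrix Expression Console, which the submitters' processing notes name too, and deposited 31099 of these as linear intensity. The sources used here give no summary algorithm, scaling target or detection calls. From the deposited intensities, 57 control probe sets were left out, each array was divided by its mean, one of the divisors named in the methods, and log2 was taken. At 1 W the log2 values of both arrays were averaged.

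limma 3.58.1 (R 4.3.3, intensity trend, 3 groups, 1 residual and 3.12 prior degrees of freedom) was run on probe sets whose mean level reached the 40th percentile. A run on simulated data with equal noise on all arrays required only that mean log2 ratios were recovered. It set no check on false calls. Fold rules of 2.0 and 0.5 follow the methods. Python 3.11.15 with numpy 2.4.6, pandas 2.3.3 and matplotlib 3.10.9 gave the tables and figures.

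Of the probe sets, 20826 had 1 symbol, 436 several and 9780 none, and all 10 symbols matched RefSeq GRCr8. The members and lists were chosen with earlier results of these data known. Named were every probe set of the members, called genes of the other lists or their 2 brightest, and the 3 genes nearest to *Acta2* and to *Tagln*. Genes outside this rule (*Des*, *Tagln2*, *Fhl2*, *Myocd*, *Cdh1*, *Dcn*) were chosen after their values were seen. Alternatives were median and quantile scaling, values as deposited, a floor at the 20th percentile, no filter, no trend, the mean over probe sets and each 1 W replicate left out. The number of arrays limits the precision, and dim probe sets are the least certain. A further pathway list is not reported here.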

Additional observations from a re-analysis of the deposited data

Results flagged for a closer look

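In 3 of the 21 probe sets (14.3%) both arrays at 1 W lay on one side of day 0 and the 2 W array on the other. This was no more than the 16.6% of all probe sets, so the count sets these genes apart in no way. For the brightest *Tpm1* probe set (1370287_a_at) the log2 ratio was 0.73 and 0.92 on replicates 1 and 2, against -0.14 at 2 W, and the difference of 2 W from 1 W did not pass limma (adjusted p = 0.139). For the dim *Tpm1* probe set 1370513_at it was -0.73 and -0.58 at 1 W and 0.15 at 2 W. With the values as deposited, 1370513_at was below day 0 at both times (-0.85 for the 1 W mean and -0.42 at 2 W). For the dim *Cald1* probe set 1368823_at the log2 ratio was -0.78 and -0.80 at 1 W and 2.39 at 2 W. The differences of the 2 dim probe sets, which were below the level filter, were not tested.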

How the results depend on the processing

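limma called 9 probe sets at 1 W and 9 at 2 W relative to day 0 and 0 for 2 W over 1 W (unadjusted p under 0.05 for 1024 higher and 3048 lower). Median scaling gave 406, 1631 and 209 calls, the values as deposited 250, 7974 and 4421, and limma without a trend 0, 0 and 0 (unadjusted, 2789, 5039 and 3342). Quantile normalization gave 0 at 2 W (5023 unadjusted). Among the 10 genes, the count over 2.0-fold on each array after ECLE was 5, and 3 with the mean over all probe sets of a gene. Leaving out 1 array at 1 W gave 5 to 7 genes over 2.0-fold at 1 W. Directions turned at 2 W for the *Tpm1* probe sets 1370287_a_at (0.14 with median scaling) and 1370288_a_at (-0.46 as deposited). They turned for the dim *Tpm1* probe set 1371240_at with a floor (-0.12 at 1 W and -0.036 at 2 W). The brightest *Cald1* probe set turned as deposited (-0.057 at 2 W). So did the dim *Tpm1* probe set 1370513_at (-0.42 at 2 W as deposited). The dim *Mylk* probe set 1384818_at turned at 1 W without replicate 1 (-1.48). The cause was not tested. Median log2 ratios of all genes at 2 W were 0.12 with median scaling and -0.72 as deposited. Of 312 alternative values of single probe sets, 283 kept their direction and side of the threshold or moved by less than the replicate spread. Without a replicate at 1 W no residual degree of freedom is left, so no test was run. No paired analysis was possible because each rat was killed at a single time point, so the groups hold different animals.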

Other observations

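Probe sets shared by *Acta2* and *Actc1* gave a second reading of these closely related actins. The brightest of the 5, 1385797_at, stood at 35.7% of the array mean at day 0, 58.7% and 44.3% at 1 W, and 99.6% on the 2 W array. Its log2 ratio of 1.48 at 2 W is above the 0.65 of the *Acta2* probe set, while 1370856_at had 0.46 at 1 W and 0.62 at 2 W. The other 3 were dim, at or below the 25.5 percentile of mean level.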
